A study of Mus musculus with 24 samples.

Results

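Gene expression in splenic CD11b+ myeloid cells was compared between STAT6-KO and HDC-KO mice after myocardial infarction (MI). The comparison took all spleen arrays of these 2 genotypes after MI, which were 6 of the 24 arrays of the series, 3 per genotype at 1, 2 and 4 weeks. All genes on autosomes were included, and 16178 of the 19821 that the array carries gave enough signal to be tested. The STAT6-KO mice lack the transcription factor STAT6 and the HDC-KO mice lack histidine decarboxylase (HDC). By the study's methods both were purchased knockout lines on a Balb/C background, 10 weeks old, and the labels call them male. How either allele was made is not given in the sources used here. Each array carried RNA of CD11b+ cells pooled from 5 mice. The 3 wild-type (WT) spleen arrays of the same weeks, also on a Balb/C background, served as reference. There was 1 array for each genotype and week, so the 3 arrays of a genotype were its 3 weeks. Every SD given here therefore measures the spread between weeks and pools together. The main test had the week as a term, so it measures the spread left once the shift shared within a week is removed. Since the 3 arrays of a genotype also shared 1 slide and 1 scan, genotype and slide cannot be told apart.

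HDC is the enzyme that makes histamine from histidine, and immature myeloid cells are among the cells that express it. Histamine acts on G protein-coupled receptors. STAT6 is phosphorylated when interleukin-4 (IL-4) or interleukin-13 (IL-13) binds its receptor, and it then enters the nucleus and binds palindromic TTC and GAA half-sites near its target genes. In macrophages these targets include the chemokines, lectins and enzymes of the type 2 program. CD11b is an integrin subunit of neutrophils, monocytes, macrophages and some dendritic and natural killer (NK) cells, so the sorted population is a mixture, and the spleen is a reservoir from which such cells leave after cardiac injury.

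Levels are given as the log2 background-subtracted signal of a probe minus the log2 75th percentile of its array, so that 0 is that percentile. The percentile corresponded to signals of 1751, 1762 and 928 on the STAT6-KO arrays at 1, 2 and 4 weeks and to 2461, 2223 and 1178 on the HDC-KO arrays. Between 75.1% and 79.0% of the spots of these 6 arrays were well above background, and the lowest such signal lay between -7.19 and -6.08 on the log2 scale, so a level near or under these values is only a bound. Itgam, which encodes CD11b, read 4.23, 4.11 and 3.52 in STAT6-KO and 4.31, 3.56 and 3.87 in HDC-KO cells, and the groups overlapped. Its difference was 0.04, and none of the 5 measured genes for CD11b and its partner integrins passed the test.

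The knocked-out genes were examined first, as a check of the labels. Hdc read 4.12, 4.46 and 4.78 at 1, 2 and 4 weeks in STAT6-KO and 1.76, 1.67 and 1.93 in HDC-KO cells. All STAT6-KO arrays lay above all HDC-KO arrays and near the WT levels of 4.73, 4.32 and 4.83. The difference was 2.67 (SE 0.18), or 6.36-fold, with an adjusted p of 0.00425 by limma. The Hdc probe thus still gave a signal well above background in HDC-KO cells. Of the 3 probes for Stat6, the brightest read 2.34, 2.44 and 2.12 in STAT6-KO and 2.92, 2.58 and 2.24 in HDC-KO cells, and did not pass the test (difference -0.28, adjusted p = 0.417). The other two read -0.98, -1.11 and 0.73, and -1.59, -1.72 and 0.20, in STAT6-KO cells, with mean differences of -1.18 and -1.62. At 1 and 2 weeks these probes lay below every HDC-KO and WT array. At 4 weeks the 0.73 of the former lay below the HDC-KO and WT arrays of that week, at 1.22 and 1.29, and the 0.20 of the latter below 0.81 and 1.08. Both values lay within the WT range over the weeks, which was 0.05 to 1.29 and -0.43 to 1.08. Therefore this array is called the array labelled STAT6-KO MI 4 weeks, and the main counts of called genes are also given without it. For Ccl24, Nab2 and Nxpe5, described further on, the same array was the farthest from the HDC-KO and WT levels. These genes were called in a fit that held this array. For Nemp1, also called higher, it was instead the STAT6-KO array nearest to those levels, at 0.23. A probe outside the deleted part of a gene checks nothing, and which exons were deleted is not given in the sources used here.

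A further difference concerned genes that mark the sex of the animals. Xist, the RNA that coats the inactive X chromosome in female cells, read -1.22, -0.89 and -0.74 on the HDC-KO arrays by its first probe and was well above background on all 3. It was well above background on none of the STAT6-KO arrays (-8.99, -9.36 and -8.51) or WT arrays (-8.29, -8.69 and -8.77) after MI. The STAT6-KO spleen control array read -2.06. A second Xist probe read -3.31, -2.05 and -2.07 on the HDC-KO arrays and -5.86, -6.07 and -6.06 on the STAT6-KO arrays, and was well above background on all 3 of the former, 2 of 3 of the latter and 1 of 3 WT arrays. The Y-linked genes were measured on the HDC-KO arrays too. Ddx3y, a Y-linked RNA helicase gene, read 0.14, -0.17 and -0.41 in STAT6-KO and -1.73, -1.49 and -2.48 in HDC-KO cells, a difference of 1.75. Of 4 Y-linked genes 2 passed the test as higher in STAT6-KO cells, with a median difference of 1.40 over the 4. Only autosomal genes are counted here, but the sex of the pooled animals and the genotype cannot be told apart.

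**Figure D1:**
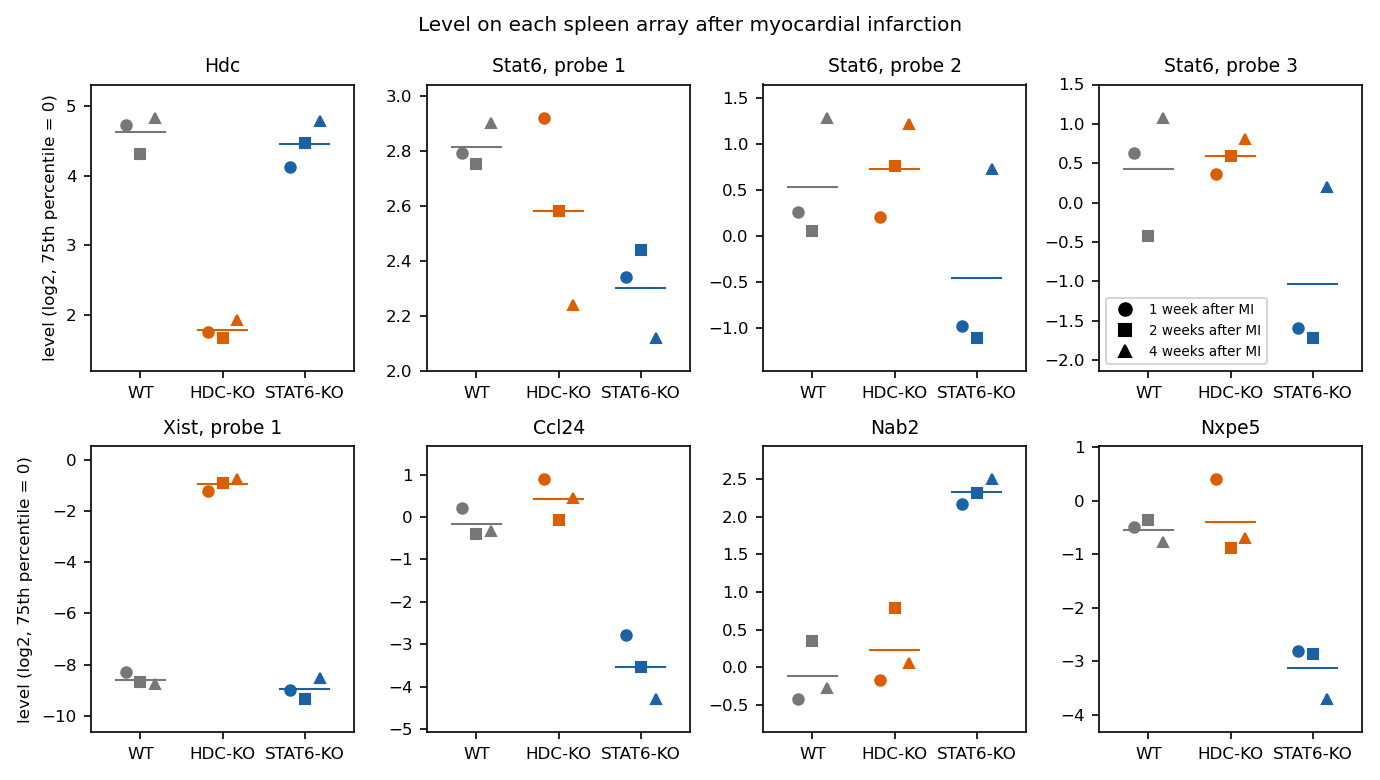
Level (log2, 75th percentile of the array = 0) of Hdc, 3 Stat6 probes, the first Xist probe, Ccl24, Nab2 and Nxpe5 on each of the 9 spleen arrays after MI, with 1 point per array, the week as marker shape and the mean of each genotype as a line. Hdc is low in HDC-KO cells alone, Stat6 probes 2 and 3 are lowest at 1 and 2 weeks in STAT6-KO cells and read 0.73 and 0.20 there at 4 weeks, and by its first probe Xist is well above background in HDC-KO cells alone.

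Across the autosomal genes the median difference, STAT6-KO minus HDC-KO, was -0.06, and the 10th and 90th percentiles were -0.69 and 0.37. Each array was scaled to its own 75th percentile, so a median near 0 does not show that the knockouts were close. Over all genes and transcripts tested, STAT6-KO arrays correlated with the HDC-KO arrays of 1, 2 and 4 weeks by 0.984, 0.977 and 0.978. With the WT arrays of the same weeks they correlated by 0.978, 0.981 and 0.978. In a fit with the week as block, 544 genes passed an adjusted p of 0.05, which is 3.36% of those tested (4.04% over all genes and transcripts of the fit). Of these, 74 genes (0.457%) were higher and 470 genes (2.91%) were lower in STAT6-KO cells. With each array scaled to its median, which moved the median of all genes from -0.06 to 0.14, the split was 75 to 182, and with quantile normalization it was 36 to 64. At an unadjusted p under 0.05 there were 750 higher (4.64%) and 2564 lower (15.8%). The sign was the same at all 3 weeks for 2128 genes upward (13.2%) and 4488 downward (27.7%). The 3 STAT6-KO arrays lay above the 3 HDC-KO arrays for 555 genes (3.43%) and below them for 1334 (8.25%). A difference beyond 1 in the same direction at all 3 weeks was found for 26 genes upward (0.161%) and 166 downward (1.03%). The calls rested on the week as block, on the WT arrays in the fit and on the arrays of every week. Of the 544 calls, 197 were kept without the 1-week arrays, 31 without the 2-week arrays and 0 without the 4-week arrays. The count called higher, however, did not fall without the 1-week arrays. Without the block 9 genes were called higher and 17 lower. On the 6 knockout arrays alone limma called 0 (573 higher and 2056 lower at an unadjusted p under 0.05). Without the 1-week arrays it called 87 higher and 252 lower, without the 2-week arrays 5 higher and 30 lower, and without the 4-week arrays limma called 0 (733 higher and 2014 lower at an unadjusted p under 0.05). Without the array labelled STAT6-KO MI 4 weeks alone, 15 were higher and 86 lower. As the cells are a bulk sample, fewer cells of a type and less RNA per cell cannot be told apart in any of these differences.

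The genes called lower were mostly dim. Their median level was -5.38 in STAT6-KO, -4.05 in HDC-KO and -4.75 in WT cells, against -1.21, -1.13 and -1.18 over all genes tested. Of the 470, 333 were well above background on all 6 arrays and 41 on none of the STAT6-KO arrays. Of the 74 called higher, 63 were well above background on all 6. Among the 868 genes at a mean level under -6, 8 were called higher and 96 lower, and the median difference of all of them was -0.44. Among the 2858 genes above 2, 4 were higher and 6 lower, with a median of 0.05. Against WT, the median over the dimmest genes was -0.13 for STAT6-KO and 0.36 for HDC-KO cells. The median difference thus moved with the level, and with it the balance of the calls. When each probe's local background was subtracted directly and 50 added, a setting chosen after seeing the data, 43 genes were higher and 103 lower.

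**Figure D2:**
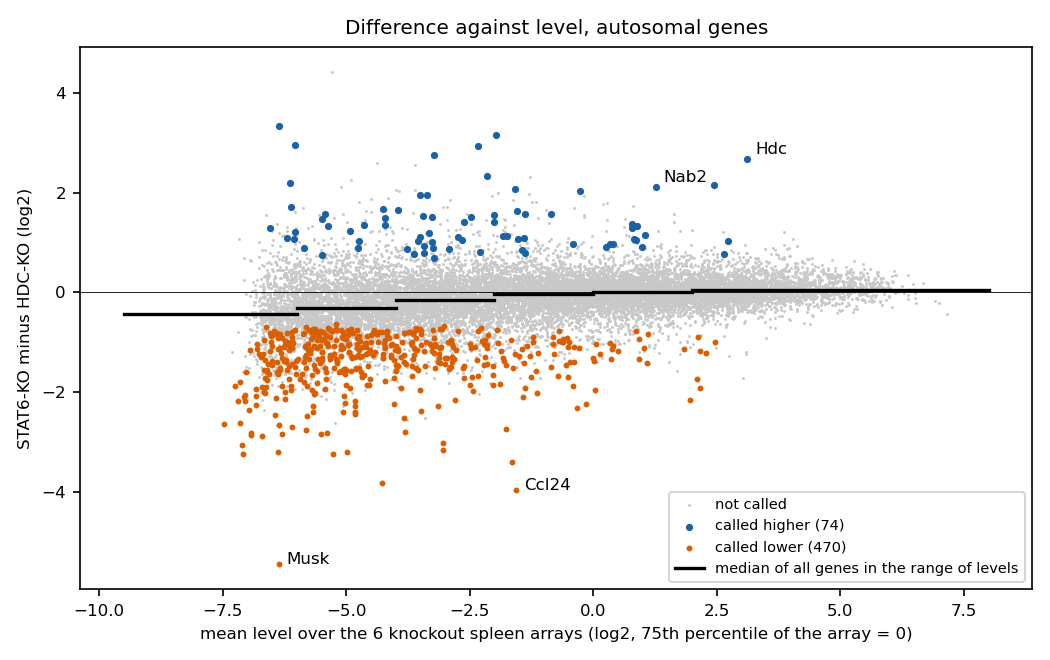
Difference, STAT6-KO minus HDC-KO (log2), of each autosomal gene tested against its mean level over the 6 knockout spleen arrays (log2, 75th percentile of the array = 0). The 74 genes called higher and the 470 called lower are coloured, and the black bars, which give the median of all genes in 6 ranges of level, run from -0.44 for the dimmest genes to 0.05 for the brightest.

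The gene with the clearest fall among those of a STAT6-driven program was Ccl24, which encodes eotaxin-2, a chemokine that attracts eosinophils and is made by macrophages stimulated with IL-4. Ccl24 read -2.77, -3.55 and -4.30 in STAT6-KO cells (-3.54 ± 0.76, mean ± SD, n = 3 arrays). In HDC-KO cells it read 0.90, -0.07 and 0.45 (0.43 ± 0.48, n = 3), and in WT cells 0.21, -0.39 and -0.32. Every STAT6-KO array was below every HDC-KO and WT array. The difference of -3.97 (SE 0.26) was a 15.7-fold lower signal, with an adjusted p of 0.00386 by limma. It was -3.58 without the 4-week arrays (adjusted p = 0.107) and -3.62 without the array labelled STAT6-KO MI 4 weeks alone (adjusted p = 0.00696).

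Ccl24 was 1 of 22 measured genes of a list of STAT6 targets in type 2 macrophages, and the only one of them called, beside 3.36% of all genes tested. The median difference of the list was -0.16, beside -0.06 over all genes tested, and 0.04 with each array scaled to its median, beside 0.14. The list's median at 1, 2 and 4 weeks was -0.21, 0.03 and -0.15. A look at the promoters followed, because STAT6 binds sites of the form TTCNNNNGAA. The RefSeq promoters of build GRCm38.p6, which run from 250 bases before to 50 bases after a gene's start, held these letters, which read the same on either strand, in 2284 of 32851 windows (6.95%) and for 8.01% of genes. Of the 17 listed genes with a promoter entry, 5 held them. Ccl24 has no entry and was not searched. These 5 sites are shown with 10 bases on either side and the motif in capitals, since they are the STAT6-type sites of listed genes that the array also measured.
Ccl17 (chr8:94810289-94810318, plus strand): cgagtgaccaTTCTCTGGAAagccacaaac
Fcer2a (chr8:3691010-3691039, minus strand): agagggtgaaTTCCCAAGAAgggccaggag
Pdcd1lg2 (chr19:29410827-29410856, plus strand): catgctccagTTCCTCAGAAaccattctgg
Retnla (chr16:48842454-48842483, plus strand): agaatcataaTTCACAAGAAattgctaaac
Tfec (chr6:16898622-16898651, minus strand): ccattgtaaaTTCTGGGGAAaaatgtttat

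None of these 5 genes passed the test. The differences were -0.35 for Ccl17, a chemokine of type 2 responses, 0.09 for Fcer2a, the low-affinity IgE receptor, and -0.22 for Pdcd1lg2, the PD-1 ligand PD-L2. They were -0.60 for Retnla, a secreted marker of type 2 macrophages, and 0.50 for Tfec, a macrophage transcription factor. A match is a description of letters in a window and not evidence of binding. Among the 13 measured genes for the IL-4 and IL-13 receptors and the STAT6 pathway, none was called. Il4ra, the shared receptor chain, read -1.39, -0.79 and 1.04 in STAT6-KO and -1.38, -1.16 and -0.45 in HDC-KO cells, with overlap. None of the 6 measured STAT family genes was called either.

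Other genes set STAT6-KO cells apart from both HDC-KO and WT cells. Nab2, a corepressor of the EGR transcription factors, read 2.17, 2.32 and 2.50 in STAT6-KO, -0.17, 0.79 and 0.05 in HDC-KO and -0.43, 0.35 and -0.27 in WT cells. All STAT6-KO arrays lay above the others, and the difference of 2.11 (SE 0.21, 4.31-fold) had an adjusted p of 0.00976. A second Nab2 probe gave 1.20. Nab2 is the next measured gene to Stat6 on chromosome 10, and the RefSeq models of these genes share 70 bases. Of the 40 measured genes nearest to Stat6, 20 on each side, 3 were higher and 1 was lower, beside 0.457% higher and 2.91% lower over all genes. These were Nab2, Nemp1, which encodes a nuclear envelope protein (0.90, adjusted p = 0.0482, with 0.41 and 0.26 by its other probes), Myo1a, a brush border myosin gene (0.87, adjusted p = 0.0432), and Rdh19, a retinol dehydrogenase gene (-1.08, adjusted p = 0.0319). The first 3 are the next 3 measured genes after Stat6. Without the array labelled STAT6-KO MI 4 weeks, only Nab2 of these 4 passed (adjusted p = 0.033).

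Nxpe5 was chosen after its values were seen, as 1 of 6 genes that passed in 15 of 18 alternative settings, the most that any gene reached. The other 5 were Ccl24, Dynll1, Hdc, Nab2 and Rbbp9. Nxpe5 read -2.81, -2.87 and -3.71 in STAT6-KO, 0.41, -0.88 and -0.70 in HDC-KO and -0.50, -0.35 and -0.77 in WT cells, a difference of -2.74. It was low in STAT6-KO cells alone. Dynll1, a dynein light chain gene, read -6.31, -5.76 and -5.99 in STAT6-KO, -3.73, -3.42 and -3.68 in HDC-KO and -5.46, -5.34 and -5.29 in WT cells, a difference of -2.41. Here the HDC-KO arrays stood apart from both others.

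Of the 12 largest fitted rises, 5 lay on chromosome 2, which holds Hdc, and all 5 were well above background on all 6 arrays. Of the 12 largest fitted falls 3 lay there. These were Bpifb3, Wfdc6b and Olfr1023, each well above background on only 1 or 2 of the STAT6-KO arrays. Membership of both sets rested in part on values at the detection limit. The counts are therefore not set against the 8.32% of tested genes that lie on chromosome 2. Rbbp9, a serine hydrolase gene, read -0.75, -0.72 and -1.13 in STAT6-KO and -3.46, -3.60 and -4.32 in HDC-KO cells, a difference of 2.92 (SE 0.18). The WT arrays read -1.02, -1.19 and -1.25, so HDC-KO was the group that stood apart. A second Rbbp9 probe went the other way (-0.83). Jmjd7, a lysyl hydroxylase gene, read -2.05, -1.67 and -1.83 in STAT6-KO and -5.17, -4.09 and -4.53 in HDC-KO cells, a difference of 2.74, with WT at -1.92, -1.33 and -2.29. AU019990 read 0.48, -0.32 and -1.33 in STAT6-KO and -2.98, -3.34 and -4.33 in HDC-KO cells, a difference of 3.16, with WT at -1.03, -0.84 and -1.42. For these genes too the STAT6-KO arrays lay with WT and the HDC-KO arrays below both. Scg5, which encodes a chaperone of prohormone convertase 2, read -1.98, -0.23 and -0.77 in STAT6-KO and -3.78, -3.12 and -3.05 in HDC-KO cells, a difference of 2.33. Its WT arrays read -3.20, -0.95 and -1.39, the first of these within the HDC-KO range. Hdc was the remaining gene of the 5.

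None of the 40 measured genes nearest to Hdc was called, Hdc itself left out. In bins chosen after the values were seen, 8% of the genes 51 to 100 places before Hdc and 14% of those 51 to 100 places after it were called. The shares were 3.33% on either side for places 21 to 50, 6% and 10% for the next 100 places after 100, and 2.56% and 3.44% beyond, beside 3.36% over all genes. Called genes of these bins, named after their values were seen, went both ways. Vps16, a gene for endosomal membrane fusion, read 1.14, 1.30 and 1.24 in STAT6-KO and 2.79, 2.93 and 3.14 in HDC-KO cells, a difference of -1.73, with WT at 0.98, 1.07 and 1.11. Pla2g4d, a phospholipase A2 gene, had a difference of -2.52 and a WT mean of -5.00, beside -5.10 in STAT6-KO and -2.57 in HDC-KO cells. In all, 57 genes of chromosome 2 were called (11 higher and 46 lower), 4.23% of its 1346 tested, beside 3.36% over all chromosomes. Chromosomes 6 (5.27%) and 7 (4.58%) had higher shares.

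**Figure D3:**
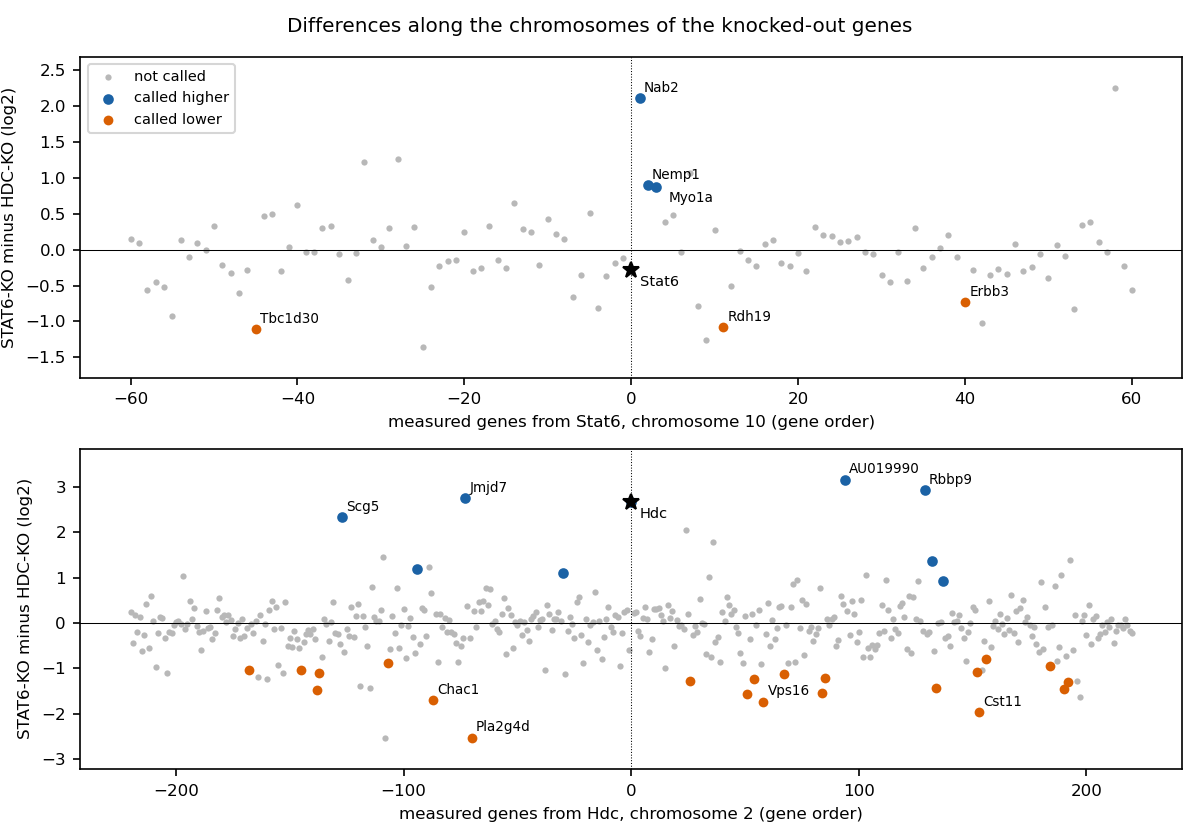
Difference, STAT6-KO minus HDC-KO (log2), of the measured genes around Stat6 on chromosome 10 and around Hdc on chromosome 2, placed by gene order with the knocked-out gene at 0. Called genes are coloured: beside Stat6 the next 3 genes after it are high, and around Hdc called genes lie on both sides at more than 20 places, with Rbbp9 at 2.92 and Pla2g4d at -2.52.

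The other 7 of the 12 largest rises, Nab2 among them, lay on other chromosomes. Arl2bp, which encodes a partner of the GTPase ARL2, read 3.82, 3.56 and 3.20 in STAT6-KO and 1.24, 1.33 and 1.56 in HDC-KO cells, a difference of 2.15, with WT between 3.82 and 4.26. Klhl25, an adaptor gene of cullin ubiquitin ligases, read 0.40, 0.97 and 0.83 against -1.39, -0.89 and -1.58, a difference of 2.02, with WT between 0.65 and 0.80. STAT6-KO and WT arrays thus lay together above HDC-KO for both genes. Second probes went the other way, at -0.62 for Arl2bp and -0.63 for Klhl25. Fgf8, a fibroblast growth factor gene, had a difference of 2.06, with -1.10 by a second probe, while its remaining probe was well above background on none of the 6 arrays. Smco3, the bitter taste receptor gene Tas2r122 and Sprr2e, a gene of the cornified envelope of skin, were well above background on all STAT6-KO arrays and on no HDC-KO or WT array, so they entered the test through the group where they were high. Against the lowest measurable signal they were at least 3.71-fold, 4.08-fold and 2.92-fold higher. For the other 9 rises, well above background on all 6 arrays, the adjusted p lay between 0.00386 and 0.0353, and between 0.107 and 0.214 without the 4-week arrays. Without the array labelled STAT6-KO MI 4 weeks, 7 of the 9 passed, and Scg5 and Fgf8 did not.

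Among the 12 largest fitted falls, those under the detection limit in STAT6-KO cells are only bounded, so the order of the 12 is not set. Musk, the receptor kinase that organizes the neuromuscular junction, read -9.19, -9.46 and -8.63 in STAT6-KO and -4.08, -3.55 and -3.28 in HDC-KO cells, and was well above background on all HDC-KO arrays and on no STAT6-KO or WT array. The signal was at least 8.96-fold lower, and the gene entered the test through the HDC-KO arrays. Hbb-bh1, an embryonic globin gene, read -3.86, -3.42 and -2.74 in STAT6-KO and -0.97, -0.12 and 1.29 in HDC-KO cells, a difference of -3.41, with WT at -3.64, -1.23 and -1.21. Perp, a desmosome gene, had a difference of -3.17, with -5.14, -3.72 and -5.03 in STAT6-KO and -0.77, -2.28 and -1.34 in HDC-KO cells. The groups did not overlap for these 3 genes. Wfdc6b, a gene of a protease inhibitor family expressed in the male reproductive tract, read -6.97, -6.26 and -6.55 in STAT6-KO and -3.71, -3.99 and -2.47 in HDC-KO cells, and was well above background on 1 of the 3 STAT6-KO arrays, so its difference is only a bound. The other 7 of the 12 largest falls beside Ccl24 were Gsx2, Tmem100, Bpifb3, Chrna5, 4933427I22Rik, Olfr1023 and Vmn1r174. Tmem100, Chrna5, 4933427I22Rik and Vmn1r174 were well above background on no STAT6-KO array, which bounds them at least 2.51-fold, 4.06-fold, 2.33-fold and 2.93-fold lower. For Gsx2, a homeobox gene, and Olfr1023, an odorant receptor gene, the groups overlapped although every week gave a fall. Of the 12 falls, 3 (Ccl24, Hbb-bh1 and Perp) were well above background on all 6 arrays, and the others were so on all HDC-KO arrays and on 0 to 2 STAT6-KO arrays. For these 3 the adjusted p lay between 0.00386 and 0.0316, and between 0.107 and 0.214 without the 4-week arrays. Without the array labelled STAT6-KO MI 4 weeks, Ccl24 and Hbb-bh1 passed and Perp did not (adjusted p = 0.083).

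Where signal was high, calls were few. Of 6139 genes that were well above background on all 6 arrays and had a mean level above 0 over them, 15 were called higher (0.244%) and 23 lower (0.375%). Examples given here were picked after their values were seen, for what the genes do. Fgl2, a fibrinogen-like immune regulator, read 3.35, 3.14 and 3.21 in STAT6-KO and 2.43, 2.17 and 2.03 in HDC-KO cells. Cd101, an inhibitory membrane protein of myeloid and T cells, read 1.41, 1.52 and 1.74 against 0.69, -0.36 and 0.35. Both were higher in STAT6-KO cells without overlap. The means of Fgl2 were 3.23 in STAT6-KO, 2.21 in HDC-KO and 3.11 in WT cells, and those of Cd101 were 1.56, 0.23 and 1.08. The WT mean thus lay nearer to STAT6-KO for both. Lower in STAT6-KO cells were Cited2, a coregulator of CBP and p300 (1.56, 1.53 and 1.91 against 2.86, 2.24 and 2.59), and Hes1, a repressor downstream of Notch (0.30, 0.19 and 0.97 against 0.92, 1.13 and 1.74). The groups overlapped for Hes1 and not for Cited2. The WT mean was 2.16 for Cited2, between the knockouts, and 0.08 for Hes1, below the mean of both. Fgl2, Cd101, Cited2 and Hes1 lost the call without the array labelled STAT6-KO MI 4 weeks, without the block and with quantile normalization.

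Gene lists of pathways and cell types held few calls. Over 32 lists 396 different genes were measured, of which 1 (Hdc) was called higher and 6 lower. This is 1.77%, beside 3.36% of all genes tested, and 27 of the lists held no called gene. The share over all genes moved with the level, as 96 of 868 were called lower under -6 and 6 of 2858 above 2. A share at the levels of the listed genes was not tested. The lists were drawn up with earlier results of these data known.

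Among the cytokine and interferon lists no gene was called. Of the 21 interferon-induced genes 18 had differences above 0 and 3 below (median 0.26), and the list medians were -0.42, -0.02 and 1.13 at 1, 2 and 4 weeks. Oasl2, which was among the 3 below and had the largest difference of them, an interferon-induced antiviral gene, read 1.19, 0.65 and 4.69 in STAT6-KO and 4.53, 3.33 and 3.83 in HDC-KO cells. Irf7, the regulator of type I interferon transcription, read 2.18, -1.30 and 2.62 against -0.43, -1.16 and -0.29. The array labelled STAT6-KO MI 4 weeks was the highest of the 6 for both. The 6 Oas1 genes (-0.58, 0.17 and 0.98) and the 15 interferon-gamma-induced GTPase genes (-0.64, -0.31 and 0.93) had list medians of the same order by week. None of the 20 genes of the interleukin-1 family and inflammasome was called, with 11 differences above 0 and 9 below (median 0.01). Il1b and Il18 had differences of 0.41 and 0.50. Il1rn and Il1r2 had differences below 0, at -1.08 to -0.02 and -1.20 to -0.09 over the alternative settings. Il6, which encodes interleukin-6, read -3.91, -3.52 and -3.41 in STAT6-KO and -3.54, -2.37 and -0.88 in HDC-KO cells, a difference of -1.35 (adjusted p = 0.0823). Of the 16 inflammatory chemokine genes 11 had differences below 0 (median -0.44, and 0.03 with normexp background correction), among them Ccl2, the ligand of CCR2, at -0.79 (adjusted p = 0.494).

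Adrb1, which encodes the beta1-adrenergic receptor that the study followed in these cells, did not pass the test. It read -2.31, -2.19 and -0.53 in STAT6-KO, -2.42, -2.35 and -1.89 in HDC-KO and -2.47, -2.35 and -1.47 in WT cells. Its difference of 0.55 had an adjusted p of 0.254, and the array labelled STAT6-KO MI 4 weeks was the highest of the 9. Adrb3, the gene of a related receptor, had a difference of 0.00.

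Among the collagen and fibroblast matrix genes 3 of 13 measured fell and none rose, beside 2.91% lower over all genes. Col1a1, a chain of type I collagen, read -3.29, -3.23 and -2.57 in STAT6-KO and -2.08, -2.31 and -1.34 in HDC-KO cells, a difference of -1.12 (adjusted p = 0.0309). Col4a1, a basement membrane collagen gene, had a difference of -1.26 (adjusted p = 0.0453), and Sparc, a matrix glycoprotein gene, -1.68 (adjusted p = 0.0497). The groups did not overlap for the collagens, and they did for Sparc. A second Sparc probe gave -0.34. The median of the list was -0.50 and moved to -0.09 with background subtraction plus 50 and to 0.37 with normexp background correction. None of the 3 passed without the array labelled STAT6-KO MI 4 weeks, on the 6 knockout arrays alone, without the block, without the 2-week or the 4-week arrays, or with median scaling, quantile normalization or normexp, which turned Col4a1 to 0.30. The summed signal of the list, in which Fn1 (fibronectin) was the brightest, differed by 0.09, 0.05 and -0.54 at 1, 2 and 4 weeks. Over all genes, 193 of 2883 were called lower at mean levels from -6 to -4, where Col4a1 lay, 108 of 3059 from -4 to -2, where Col1a1 lay, and 49 of 3174 from -2 to 0, where Sparc lay. In the TGF-beta pathway none of 15 was called. Its list had 12 differences below 0 and 3 above (median -0.31). All STAT6-KO arrays lay below the HDC-KO arrays for 3 genes and above them for 1, beside 8.25% and 3.43% of all genes. The list included Thbs1, the TGF-beta activator thrombospondin-1, at -1.43 (adjusted p = 0.102), and Ltbp1, a latent TGF-beta binding protein gene, at -0.96 (adjusted p = 0.0858), both without overlap. Tgfbi, induced by TGF-beta, had a difference of 0.36.

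Markers of other cell types were set beside these differences. All 10 measured T cell genes had differences below 0 (median -0.49), beside -0.06 over all genes tested, and 1 was called, Trat1, a T cell receptor adaptor gene, at -1.21 (adjusted p = 0.0313). Over all genes 2.91% were called lower, so 1 of 10 is no result about the list. The summed T cell signal was 3.51, 4.65 and 4.70 in STAT6-KO and 3.47, 5.53 and 5.19 in HDC-KO cells on the log2 scale, and Lck, the kinase of the T cell receptor, was the brightest. All 10 NK and cytotoxic lymphocyte genes also had differences below 0 (median -0.68), with 1 called, Eomes, a T-box factor of NK cells, at -1.42 (adjusted p = 0.0297), beside the same 2.91%. Their summed signal was 2.63, 3.94 and 4.80 against 3.63, 4.98 and 5.17, lower at each week, and Gzma, which encodes granzyme A, was the brightest. The medians lay between -0.83 and -0.29 for T cells and between -0.95 and -0.33 for NK cells over the alternative settings. Neither Trat1 nor Eomes passed without the array labelled STAT6-KO MI 4 weeks, without the block or on the 6 knockout arrays alone. Both also failed without the 2-week or the 4-week arrays, with quantile normalization or normexp, and by the methods' t-test. None of the B cell genes was called, and their median was 0.06. The part of lymphocytes in the other differences was not tested.

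Some cell type lists held genes whose groups did not overlap although none passed the test. All STAT6-KO arrays lay above all HDC-KO arrays for 4 of 8 plasma cell genes, 1 of 12 mature neutrophil genes and 0 of 12 neutrophil granule genes. Over all genes this share was 3.43%. Of the 12 red pulp macrophage genes 11 had differences above 0 (median 0.48, and 0.36 to 0.68 over the alternative settings), and 4 did so without overlap, beside 3.43% of all genes. Spic, the transcription factor of these macrophages, read 4.34, 4.23 and 3.73 in STAT6-KO and 3.26, 2.80 and 3.68 in HDC-KO cells, a difference of 0.85 (adjusted p = 0.139). Cd163, the haemoglobin scavenger receptor gene, had a difference of 0.93 (adjusted p = 0.0972). The summed signal of the list was 7.73, 7.46 and 7.53 against 7.20, 6.64 and 7.35, with Slc40a1, the iron exporter ferroportin, the brightest, and all 3 WT arrays lay lower, at 6.37, 6.56 and 6.37. Among 12 mature neutrophil genes 11 had differences above 0 (median 0.29, and 0.20 to 0.49 over the alternative settings), with list medians of -0.11, 0.63 and 0.38 at 1, 2 and 4 weeks. Cxcr2, a receptor for neutrophil-attracting chemokines, read 2.58, 2.74 and 2.73 against 2.21, 1.31 and 1.98 (difference 0.85, adjusted p = 0.119), and Cxcr1, a receptor of the same kind, had a difference of 1.54 (adjusted p = 0.0792). Of 8 plasma cell genes 7 had differences above 0 (median 0.60, and 0.38 to 0.83 over the alternative settings), including Tnfrsf17, the BCMA receptor gene, at 1.17 (adjusted p = 0.0684). For eosinophils, basophils and mast cells none of 14 was called, 8 had differences above 0 and 6 below, and the list medians were -0.23, 0.56 and -0.42 at 1, 2 and 4 weeks. The groups did not overlap for 2 of them, 1 in each direction, beside 3.43% above and 8.25% below over all genes, a share near the background. Siglecf, an eosinophil lectin gene, read 1.12, 1.55 and 1.00 against 0.55, -0.48 and 0.17, so the STAT6-KO arrays lay above, and its difference of 1.14 had an adjusted p of 0.107. Ms4a2, a chain of the high-affinity IgE receptor, read -6.44, -6.22 and -6.23 against -5.95, -3.99 and -5.94 (adjusted p = 0.266), near the detection limit. The monocyte and macrophage (median 0.16), neutrophil granule (-0.12), dendritic cell (0.01), erythroid (0.23) and platelet (-0.10) lists held no called gene. By week the medians were 1.03, 0.07 and -0.60 for the erythroid list, in which 10 of 11 genes had mean differences above 0, and 0.00, 0.53 and -0.80 for neutrophil granule proteins. They were 0.30, -0.77 and -0.10 for platelets, -0.31, 0.29 and 0.19 for monocytes and macrophages, and -0.26, -0.18 and 0.13 for dendritic cells.

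In the lists for housekeeping and activation programs none of the genes was called. Medians were 0.08 for the cell cycle and DNA replication, 0.06 for immediate early genes, 0.02 for oxidative phosphorylation and -0.05 for MHC class II presentation. They were 0.28 for Toll-like receptors and adaptors and 0.14 for chemokine receptors. Some varied by week. The cell cycle medians were 0.36, 0.07 and -0.44 at 1, 2 and 4 weeks, those of MHC class II 0.09, -0.41 and 0.09, and those of Toll-like receptors -0.07, 0.59 and 0.36.

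**Figure D4:**
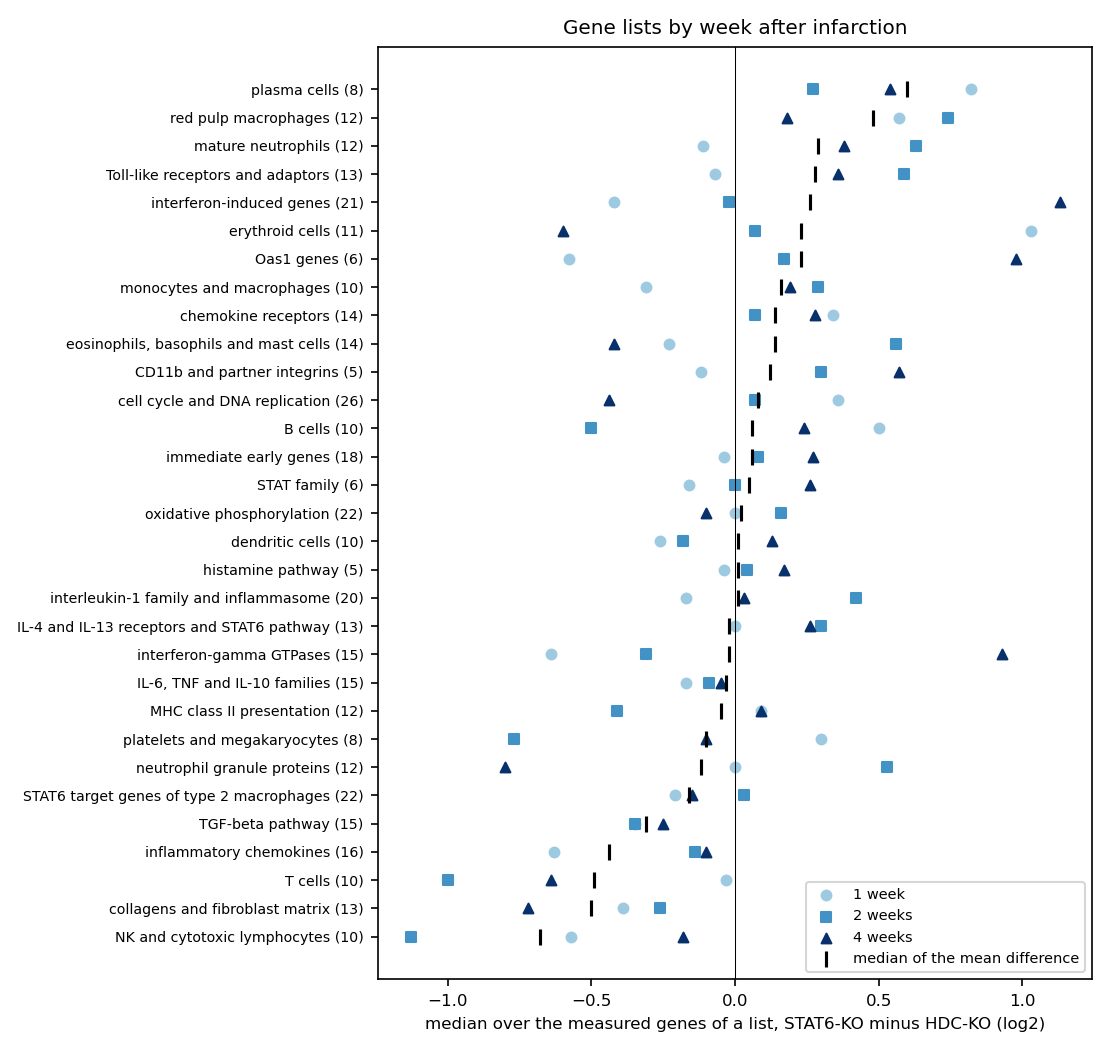
Median difference, STAT6-KO minus HDC-KO (log2), over the measured genes of each list with at least 5 of them (their number in brackets) at 1, 2 and 4 weeks after MI, with a bar for the median of the mean differences. Interferon lists run from below 0 at 1 week to 0.93 to 1.13 at 4 weeks, red pulp macrophage and plasma cell medians are above 0 at each week, and T cell, NK and collagen medians are below 0 at each week.

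The WT levels lay nearer to one or the other knockout. For the 470 genes called lower the WT mean was nearer to STAT6-KO for 255 and nearer to HDC-KO for 214. For the 74 called higher it was nearer to STAT6-KO for 34 and to HDC-KO for 40. Since WT arrays share neither slide nor scan with the knockouts, this describes positions and not a test.

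Bone marrow CD11b+ cells of the same genotypes after MI gave 5 arrays not used above, 2 of STAT6-KO (2 and 4 weeks) and 3 of HDC-KO. The 74 genes called higher in spleen were also higher in bone marrow for 54 (73.0%), with a median marrow difference of 0.31. In all genes 50.7% were above 0. The 470 genes called lower were lower in bone marrow for 165 (35.1%), with a median of 0.43, whereas 49.3% of all genes were below 0. By this count most of the spleen falls were not falls in bone marrow. They were mostly dim, however, and dim genes in general had marrow differences above 0. Over all genes the median marrow difference was 0.24 under a level of -6 and 0.3 from -6 to -4. A share at matched levels was not tested. Several of the genes described above had marrow differences of the same sign. Hdc had a marrow difference of 2.56, Rbbp9 3.34, Arl2bp 2.06 and Klhl25 2.15. Vps16 had -1.73 in both tissues. Ccl24 read -4.73 and -5.31 in STAT6-KO and -3.04, -3.12 and -2.27 in HDC-KO marrow, a difference of -2.20, and the tissues were not shown to differ (adjusted p = 0.062 for the interaction). Nab2 read 2.34 and 2.02 in STAT6-KO and -2.83, -1.17 and -2.17 in HDC-KO marrow, a difference of 3.99, larger than in spleen (interaction adjusted p = 0.0213). Myo1a, higher in spleen, had -0.07 in marrow, and the tissues were not shown to differ (interaction adjusted p = 0.0987). Pla2g4d differed in direction, with 1.19 in marrow (interaction adjusted p = 0.00356).

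The difference between tissues was tested for every gene. Of 16999 genes, the spleen difference lay above that of bone marrow for 39 (0.229%) and below it for 1005 (5.91%) at an adjusted p of 0.05. At an unadjusted p under 0.05 it was 18.9% in either direction. The largest positive fitted values were those of Gtf2a1l, a germ cell transcription factor gene (spleen 0.54, marrow -1.99), Dnaaf6, a dynein arm assembly gene (0.68 and -1.56), and Fam183b (1.47 and -0.60). The largest negative fitted values were those of Tmem100, a membrane protein gene of endothelium (-3.25 and 4.26), Vmn1r174, a vomeronasal receptor gene (-2.89 and 4.55), and Wfdc6b (-3.21 and 3.08). Gtf2a1l was well above background in HDC-KO marrow only, Dnaaf6 on no HDC-KO spleen array and Fam183b on no STAT6-KO marrow array. Tmem100 and Vmn1r174 were well above background on no STAT6-KO spleen and no HDC-KO marrow array, and Wfdc6b on 1 of 3 STAT6-KO spleen arrays. These fitted differences therefore rest in part on values at the detection limit, and their order is not set. The negative ones were again found mostly among dim probes. Under a level of -6 there were 199 below and 6 above, with median differences of -0.42 in spleen and 0.24 in marrow. Above 2 there were 14 below and 3 above, with medians of 0.05 and -0.04.

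**Figure D5:**
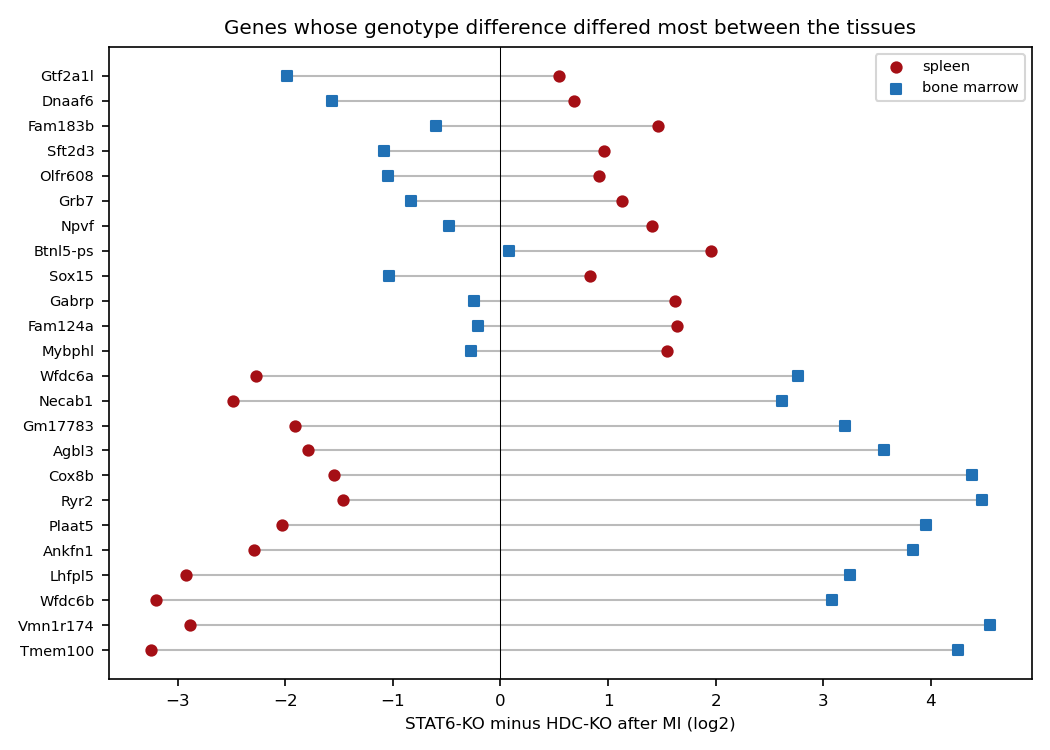
Differences, STAT6-KO minus HDC-KO after MI (log2), in spleen (circles) and bone marrow (squares) for the 12 genes with the largest positive and the 12 with the largest negative fitted difference between the tissues, of which 6 each were well above background on no array of at least 1 group. In the upper 12 the spleen value is the higher, as for Gtf2a1l (0.54 and -1.99), and in the lower 12 it is negative while the marrow value is positive, as for Tmem100 (-3.25 and 4.26).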

How the data were processed

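The authors extracted RNA from sorted CD11b+ cells with TRIzol, labelled it with Cy3 and hybridised it to 1-colour Agilent mouse 4x44K arrays. The files deposited by the authors hold Agilent Feature Extraction spot intensities, already background-subtracted by that software. The submitters' processing notes also name GCRMA, and the methods name GeneSpring, neither of which enters the values used here. Intensities were used in log2 after subtraction of each array's 75th percentile; control spots and outlier-flagged spots (904 on the 6 arrays) were left out, and no spot was saturated. Probes well above background on at least 3 of the 6 arrays were kept, and each gene was read from its brightest probe, by the mean level across the 22 arrays in use. On 2 further arrays too few spots were usable.

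STAT6-KO and HDC-KO were compared with limma 3.58.1 (R 4.3.3; lmFit and eBayes) on the 9 spleen arrays after MI, with genotype and week as terms and Benjamini-Hochberg adjustment over all 25283 genes and transcripts. The week pairs the arrays by their labels: deviations from the genotype means correlated by 0.47, 0.28 and 0.66 within a week, and by -0.56 to 0.33 between weeks. An exact sign-flip test over 3 pairs cannot give a p below 0.25 (two-sided), so it was not used. The test of tissues used 17 arrays after MI. Scripts were tested on simulated data. The number of arrays limits the precision of every value.

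Named were the 12 largest rises and falls among called genes with the same sign in every week, the 20 measured genes on each side of Stat6 and Hdc in RefSeq order, the called or otherwise largest 2 to 4 changes of each list, and the 3 largest differences of either sign between tissues. Members and lists were chosen with earlier results of these data known. Promoters are from RefSeq.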

Additional observations from a re-analysis of the deposited data

Results flagged for a closer look

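The STAT6-KO minus HDC-KO difference itself differed between spleen and bone marrow, by limma's interaction term, for 39 genes upward and 1005 downward of 16999. The largest fitted values were those of Gtf2a1l at 2.53, Dnaaf6 at 2.25 and Fam183b at 2.06. In the other direction these were Tmem100 at -7.51, Vmn1r174 at -7.44 and Wfdc6b at -6.29. For all of these genes at least 1 group held arrays not well above background, so the values depend on the detection limit and their order is not set. Gtf2a1l, Tmem100 and Vmn1r174 entered the test only through groups where they were high. The values are fitted ones, neither exact differences nor bounds, and no p is given for them. Without the 4-week arrays 31 genes differed between the tissues in either direction. The STAT6-KO bone marrow array at 1 week was not analysed here, as too few of its spots were usable, and each genotype of each tissue lay on its own slide.

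Xist lies outside the autosomal comparison and was well above background on the 3 HDC-KO arrays, at -1.22, -0.89 and -0.74, and on no STAT6-KO or WT spleen array after MI by the same probe. The labels call these animals male.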

How the results depend on the processing

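By limma, 74 genes were higher and 470 lower in STAT6-KO spleen cells, and 1044 differed between the tissues. The call counts changed under these settings. On the 6 knockout arrays alone 0 were higher and 0 lower (573 and 2056 at an unadjusted p under 0.05). Without the week as replicate block 9 were higher and 17 lower, 26 of the 544 genes kept their call, and 358 genes differed between tissues. With normexp background correction 0 were higher and 0 lower (313 and 213 unadjusted), and 0 differed between tissues (568 unadjusted). The fitted background of that correction was -605 on the STAT6-KO array at 1 week and -93.4 on the HDC-KO array at 2 weeks, beside 0.2 to 5.7 on the other 7. It also turned Tmem100 to 0.42, Chrna5 to 0.23, 4933427I22Rik to 0.42, Vmn1r174 to 0.39 and Col4a1 to 0.30. Quantile normalization gave 36 higher, 64 lower and 659 between tissues. Scaling to the array median gave 182 lower and 608 between tissues. The trend and robust options of eBayes gave 270 lower. The methods' t-test at fold over 2 and p under 0.05 gave 213 lower, and after Benjamini-Hochberg adjustment 0 higher and 1 lower. Leaving out the arrays of 1 week gave 0 to 87 higher, 0 to 252 lower and 31 to 605 between tissues. The lowest of these came without the 4-week arrays, and without the 2-week arrays there were 5 higher and 30 lower. In settings added after seeing the data, 15 were higher and 86 lower without the array labelled STAT6-KO MI 4 weeks (782 between tissues), and 43 higher and 103 lower with background subtraction plus 50. The cause was not tested. For single named genes, 2021 of the values under alternatives kept their side of the threshold, among them 19 of uncalled genes that changed sign. These include uncalled genes that stayed uncalled, so the count does not measure how stable the calls were. Of the values of called genes, 243 lost the call and the 5 given above reversed. Of those of uncalled genes, 9 gained it. The 544 genes all kept their sign under each alternative except normexp (255), the mean over probes (538) and background subtraction plus 50 (537), or the alternatives that measured fewer of them. Signals near background limit the dim genes, of which 41 called lower were above it on no STAT6-KO array.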
